A study of Mus musculus with 17 samples.

Results

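The genes described here encode the respiratory chain and the ATP synthase of the mitochondrion. They were taken from the gene table by name: names that start with Nduf, Uqcr, Cox4, Cox5, Cox6, Cox7, Cox8, Atp5 or mt-, and Sdha, Sdhb, Sdhc and Sdhd, with pseudogene and copy names left out and at least 1 read in any library. Of 34682 genes in the table, 94 names matched and 92 had reads. Ndufs5 and Ndufaf7 were listed at 0 in every library. The 92 members fell into complex I (42 genes), complex II (4), complex III (9), complex IV (20) and complex V (17). Of these, 91 are encoded in the nucleus, and mt-Nd4 was the only gene with an mt- name.

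Complexes I and II feed electrons from NADH and from succinate to ubiquinone, complex III passes them on to cytochrome c, and complex IV hands them to oxygen. Complexes I, III and IV pump protons while doing so, and complex V, the ATP synthase, lets the protons flow back and makes ATP. Each complex other than complex II joins subunits encoded in the nucleus with subunits encoded in mitochondrial DNA, so that 2 genomes supply 1 machine. Assembly factors, which are not part of the finished enzyme, help to build it.

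RNA was sequenced from mouse limb buds at embryonic stage E12.5, as polyA libraries. Wild type (WT, 4 libraries) was compared with carriers of rearrangements at the locus of Sox9 and the Kcnj genes: the duplications Dup-C (2 libraries) and Dup-L (2), Dup-L combined with a boundary deletion (Dup-LΔBor, 4, called R2 to R5), and the boundary deletion alone, ΔBor, heterozygous (het, 2) or homozygous (hom, 1). The labels do not state the zygosity of the 3 duplication genotypes, the strain, the limb pair, or whether libraries came from separate embryos, so the p-values measure the spread between these libraries, which may be technical.

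The total count per library lay between 34486256 and 53711742. Limb mesenchyme markers (6 of 6 present, none at 0) summed to 1086 to 1498 CPM (counts per 1000000 counts of the library) in every library, so the defining markers of the labelled tissue were present. The hindlimb gene Pitx1 stood at 0.527 and 0.685 CPM in Dup-L and at 1.91 CPM in both WT 2 and WT 4, against 39.1 to 117 CPM in the other 11 libraries. The forelimb gene Tbx5 stood at 186 and 190 CPM in Dup-L, 244 CPM in WT 2 and 200 CPM in WT 4, against 87.6 to 133 CPM in the others. Library numbers in the column headers fell in 2 ranges: WT 1, WT 2, Dup-C, Dup-L and ΔBor in the first, and WT 3, WT 4 and Dup-LΔBor in the second. Columns R4 and R5 of Dup-LΔBor carry the same library number, but their values differ (48937748 and 37126548 counts in total), and they were counted as 2 libraries. Erythroid markers (6 of 6 present) summed to 1863 to 4913 CPM in WT, 1708 to 2438 CPM in Dup-L and 6018 CPM in ΔBor hom. Surface ectoderm markers (4 of 4 present, none at 0) summed to 587 to 877 CPM in WT and lower in Dup-L (394.5 to 564.5 CPM), ΔBor het (433 to 515 CPM) and ΔBor hom (405 CPM), with 562 to 621 CPM in Dup-C and 517 to 636 CPM in Dup-LΔBor. Cartilage markers (3 of 3 present) summed to 511 and 525 CPM in Dup-L, below each WT library (566 to 997 CPM). The part of limb type, number range, blood, ectoderm and cartilage in the results was not tested beyond the values given below.

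The genes of ATP synthase were the most abundant of the nuclear members per transcript length. On the authors' FPKM scale (fragments per kilobase of transcript, scaled to the library), the median level over libraries was highest for Atp5b, the catalytic beta subunit, at 497 FPKM. Atp5a1, the alpha subunit, followed at 343 FPKM, and Cox4i1, the common form of subunit 4 of complex IV, at 301 FPKM. Over the genes of a complex, the median FPKM was 54.6 in complex I (nuclear genes), 85.6 in complex II, 83.9 in complex III, 99.7 in complex IV and 129 in complex V. mt-Nd4, which encodes a proton-pumping core subunit of complex I, stood at 1570 FPKM. It was thus higher than any nuclear member per length. At the low end, 2 genes of complex I, 2 of complex III and 5 of complex IV stood under 1 FPKM, among them the assembly factor Ndufaf2 at 0.03 FPKM and Cox8b, a heart and skeletal muscle form, at 0.26 FPKM. The smaller subunits of the catalytic head of complex V were lower than its alpha and beta subunits, with 108 FPKM for Atp5c1 (gamma), 127 FPKM for Atp5d (delta) and 154 FPKM for Atp5e (epsilon).

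Mitochondrial and nuclear members took different shares of the libraries. mt-Nd4 made up 0.291%, 0.297%, 0.243% and 0.218% of the counts in WT 1 to 4, 0.335% and 0.370% in Dup-C, and 0.451% and 0.439% in Dup-L. In Dup-LΔBor it made up 0.140%, 0.195%, 0.212% and 0.218%, in ΔBor het 0.417% and 0.315%, and in ΔBor hom 0.401%. All libraries of Dup-C, Dup-L and ΔBor were above the 4 WT libraries, and Dup-LΔBor overlapped WT only at its upper end. The 91 nuclear members together made up 0.948% ± 0.0689 (SD, n = 4) of the counts in WT, 0.983% ± 0.0147 (n = 2) in Dup-C, 0.802% ± 0.0267 (n = 2) in Dup-L, 0.918% ± 0.0496 (n = 4) in Dup-LΔBor, 0.864% ± 0.0445 (n = 2) in ΔBor het and 0.904% in ΔBor hom. Both Dup-L libraries (0.821% and 0.783%), ΔBor het 1 (0.833%) and Dup-LΔBor R5 (0.867%) lay below the lowest WT library (0.876%). The counts of the nuclear members came to 2.95 to 4.35 times those of mt-Nd4 in WT.

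**Figure D1:**
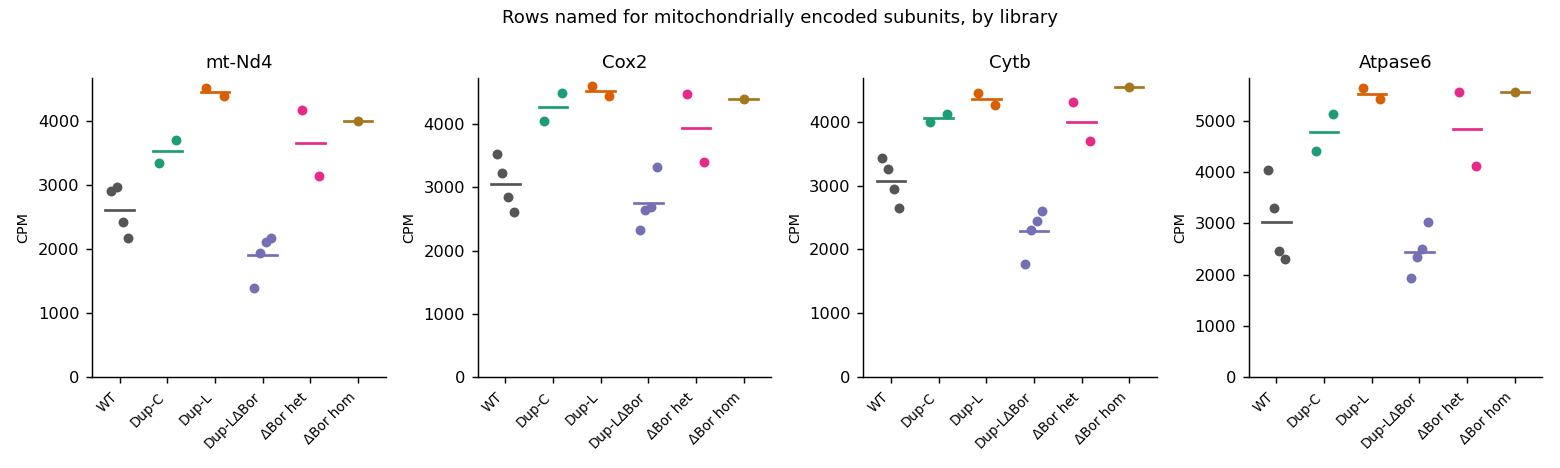
CPM (y axis) of mt-Nd4 and of 3 further rows named for mitochondrially encoded subunits, by genotype; each point is 1 library and the bar is the group mean. The Dup-L libraries sit above all WT libraries in each panel, and Dup-LΔBor sits lowest by its mean.

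In the test, mt-Nd4 rose in Dup-L, with 4511 and 4390 CPM against 2177 to 2970 CPM in WT. The log2 fold change was 0.76 ± 0.18 (SE), adjusted p = 0.00577 (edgeR's quasi-likelihood test with Benjamini-Hochberg adjustment over 17655 genes, used for each adjusted p here unless another fit is named). It did not pass the threshold of 0.05 against WT in Dup-C (log2 fold change 0.49 ± 0.18, adjusted p = 0.251), Dup-LΔBor (−0.45 ± 0.15, adjusted p = 0.0911), ΔBor het (0.51 ± 0.18, adjusted p = 0.0969) or ΔBor hom (0.69 ± 0.23, adjusted p = 0.0816). Between Dup-LΔBor and Dup-L it had a log2 difference of −1.21 ± 0.18 (adjusted p = 1.6e-04), and the 2 groups did not overlap.

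Because mt-Nd4 stands alone under its prefix, 3 rows outside the naming rule were set beside it after their values had been seen. They are named Cox2, Cytb and Atpase6, after mitochondrially encoded subunits of complexes IV, III and V. The table gives no positions, so their identity rests on the name, and Cox2 is also an older symbol of Ptgs2, which has its own row. In Dup-L they rose by 0.56 ± 0.16 (Cox2, adjusted p = 0.0165), 0.50 ± 0.15 (Cytb, adjusted p = 0.0228) and 0.86 ± 0.22 (Atpase6, adjusted p = 0.00849) on the log2 scale. From Dup-L to Dup-LΔBor the Cox2 row fell by 0.72, the Cytb row by 0.93 and the Atpase6 row by 1.17. The 4 rows summed to 1.18% ± 0.190 of the counts in WT (n = 4), 1.89% ± 0.0474 in Dup-L (n = 2) and 0.939% ± 0.153 in Dup-LΔBor (n = 4).

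For mt-Nd4, the difference in Dup-L went with transcript composition. GC content and offset results are not given here for the Cox2, Cytb and Atpase6 rows, so their rises were not checked in this way. mt-Nd4 has the lowest GC content of all tested members with a known sequence, 35.6%. When each library's trend of counts with GC content and length was removed by offsets, the log2 fold change of mt-Nd4 in Dup-L became −0.12 (adjusted p = 0.646). With the offsets its rise in Dup-L was thus no longer called. The difference of mt-Nd4 between Dup-LΔBor and Dup-L was not called with the offsets either, with or without the number range as a term. Over all alternative fits that log2 difference lay between −1.27 and −0.05.

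Of the 92 members, 88 had enough counts to be tested. Ndufaf2 (21 counts over all libraries), Cox7b2 (16), Cox8c (1) and Uqcr11 (1) did not pass the filter. In Dup-L, 7 members rose and 32 fell against WT, while 32.4% of all 17655 genes changed, 15.8% upward and 16.6% downward. Members that fell made up 36.4% and members that rose 7.95% of those tested. The median log2 fold change was −0.24 over the members and 0.00 over all genes. Without Dup-L 2, 7 members were called, all of them lower, beside 3.49% of all genes called lower. Without Dup-L 1, 26 members and 15.6% of all genes were called, so that the count rests on both libraries of the group.

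**Figure D2:**
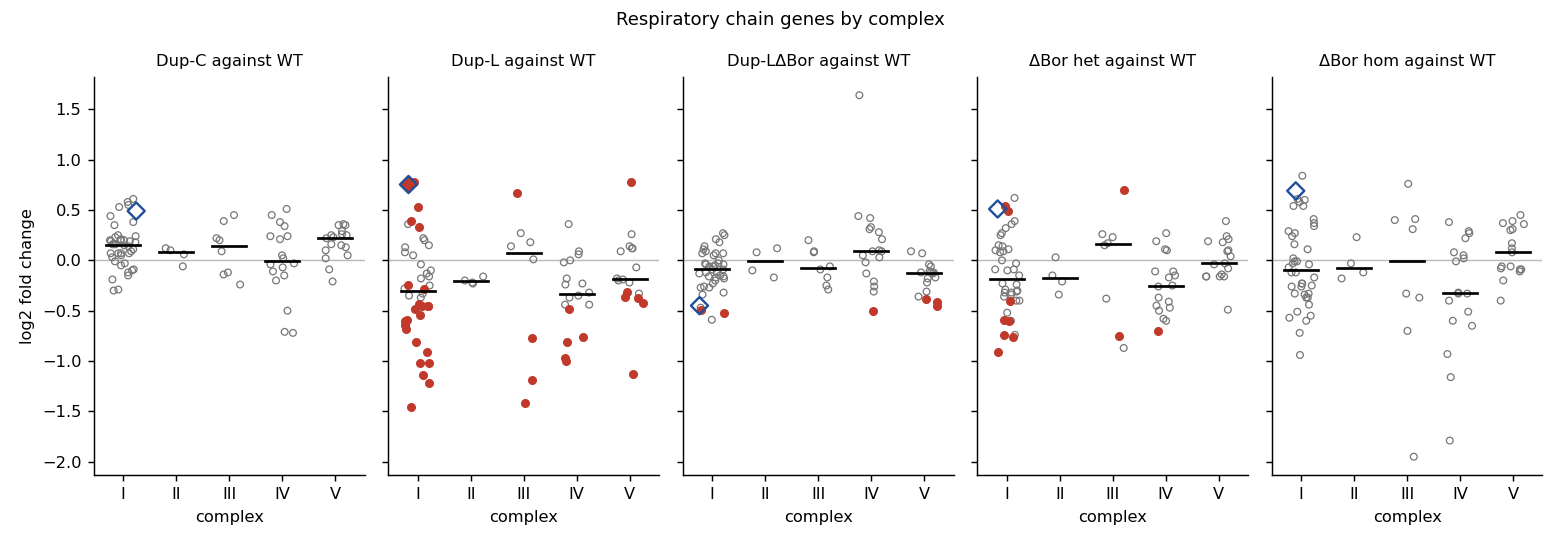
Log2 fold change against WT (y axis) of each tested member, by complex (x axis) and genotype; filled points passed an adjusted p of 0.05, the diamond is mt-Nd4 and the bar is the median of the nuclear members. In Dup-L the medians of complexes I and IV lie at −0.31 and −0.34, and filled points below 0 appear in complexes I, III, IV and V.

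Complex I held most of the members that changed in Dup-L. Among its nuclear genes, 19 of 40 fell and 4 rose. By role, 4 of 7 catalytic core subunits fell and 1 rose, 13 of 28 accessory subunits fell and 1 rose, and 2 of 5 assembly factors fell while 2 rose.

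The largest fall was that of Ndufs7, a core subunit that carries an iron-sulfur cluster next to the site where ubiquinone is reduced. It stood at 47.3, 53.7, 78.9 and 67.3 CPM in WT 1 to 4 and at 24.5 and 20.7 CPM in Dup-L, and the groups did not overlap. Its log2 fold change was −1.46 ± 0.22 (adjusted p = 0.00143). Dup-C had 53.9 and 43.1 CPM, Dup-LΔBor 79.6, 76.3, 77.9 and 60.6 CPM, ΔBor het 25.2 and 39.6 CPM and ΔBor hom 30.6 CPM. Among these, the ΔBor libraries lay below WT and those of Dup-LΔBor lay within or just above its range.

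Ndufb7, an accessory subunit on the intermembrane side, showed 54.2, 52.0, 79.8 and 67.2 CPM in WT and 31.7 and 26.2 CPM in Dup-L (log2 fold change −1.14 ± 0.20, adjusted p = 0.00185). Ndufaf5, an assembly factor that modifies Ndufs7, had low counts: 1.48, 2.12, 1.99 and 1.74 CPM in WT and 0.804 and 0.767 CPM in Dup-L (−1.22 ± 0.28, adjusted p = 0.00453). Both genes were lower in each Dup-L library than in any WT library. The core flavoprotein gene Ndufv1, where NADH is oxidised, fell by 0.43 on the log2 scale (adjusted p = 0.0101). The largest core subunit, Ndufs1, had a log2 fold change of 0.22 ± 0.09 (adjusted p = 0.0839), which did not pass the threshold.

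Ndufaf4, an assembly factor of complex I, showed the largest rise. It stood at 33.1, 31.2, 19.1 and 22.0 CPM in WT and at 42.5 and 48.3 CPM in Dup-L (log2 fold change 0.78 ± 0.19, adjusted p = 0.00718). Ndufaf1, another assembly factor, rose from 16.8 ± 2.15 CPM (SD, n = 4) to 24.3 ± 0.0438 CPM (n = 2), by 0.53 ± 0.13 on the log2 scale (adjusted p = 0.00605). With the offsets for GC content and length, Ndufaf4 had a log2 fold change of 0.17 (adjusted p = 0.499), and with the number range beside them of −0.04 (adjusted p = 0.866). Without Dup-L 2 it was 0.69 (adjusted p = 0.0946).

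None of the 4 genes of complex II, whose enzyme also works in the tricarboxylic acid cycle, changed in Dup-L in the fit without offsets. Their log2 fold changes lay between −0.23 and −0.16. Sdha, the flavoprotein, stood at 258, 259, 294 and 311 CPM in WT and at 242 and 247 CPM in Dup-L (adjusted p = 0.124). With the GC and length offsets Sdha was called lower (log2 fold change −0.34, adjusted p = 0.0286). With the number range beside the offsets it was not (−0.23, adjusted p = 0.0924). Sdhb, the iron-sulfur subunit, had a log2 fold change of −0.23 ± 0.13 (adjusted p = 0.191). A p that misses the threshold does not show that the genes of this complex were equal between the groups.

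In complex III, 3 of 8 tested genes fell and 1 rose in Dup-L. Uqcrq, a small subunit, stood at 49.1, 48.4, 60.4 and 53.2 CPM in WT and at 22.7 and 17.0 CPM in Dup-L (log2 fold change −1.42 ± 0.19, adjusted p = 0.00138). Uqcr10, another small subunit, stood at 63.7, 60.1, 121 and 92.1 CPM in WT and at 38.8 and 35.7 CPM in Dup-L (−1.19 ± 0.24, adjusted p = 0.00342). Uqcrc1, a core protein facing the matrix, fell by 0.77 (adjusted p = 0.00390). The Rieske iron-sulfur protein gene Uqcrfs1 had a log2 fold change of 0.01 ± 0.10 (adjusted p = 0.929). Uqcrb, a subunit near the ubiquinone site, went the other way, from 42.3, 39.2, 34.4 and 32.9 CPM in WT to 59.6 and 59.3 CPM in Dup-L (0.67 ± 0.16, adjusted p = 0.00568). In the fit without offsets, genes of 1 enzyme thus differed in the sign of their change. The rise rests on Uqcrb alone, which was not called with the GC and length offsets (log2 fold change 0.25, adjusted p = 0.219). Uqcrc1 was not called in that fit either (−0.40, adjusted p = 0.107), while Uqcrq (−1.50) and Uqcr10 (−0.82) were still called lower.

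In complex IV, 5 of 18 tested genes fell (27.8%) and none rose in Dup-L, beside 16.6% and 15.8% of all genes. All 5 were among the 11 common subunits. Cox4i1 stood at 252, 245, 397 and 342 CPM in WT and at 184 and 171 CPM in Dup-L (log2 fold change −0.81 ± 0.17, adjusted p = 0.00301). Cox6a1 fell from 107, 111, 141 and 122 CPM in WT to 63.6 and 56.7 CPM (adjusted p = 0.00205), and Cox8a fell by 0.76 (SE 0.16, adjusted p = 0.00360). Cox5a, the binding partner of subunit 4, had a log2 fold change of −0.18 ± 0.13 (adjusted p = 0.311).

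In complex V, 5 of 17 genes fell (29.4%) and 1 rose (5.88%) in Dup-L, beside 16.6% and 15.8% of all genes. Atp5d, the delta subunit of the catalytic head, fell by 1.13 (SE 0.22, adjusted p = 0.00281), from 131, 130, 189 and 171 CPM in WT to 76.2 and 66.0 CPM. The 2 most abundant genes did not pass the threshold: Atp5b had a log2 fold change of −0.19 ± 0.11 (adjusted p = 0.208) and Atp5a1 of −0.33 ± 0.13 (adjusted p = 0.0637). None of the 3 genes of the rotating c ring (Atp5g1, Atp5g2 and Atp5g3) changed, with values between −0.22 and −0.18. Atp5s, named for a coupling factor of the synthase, rose from 9.80, 9.82, 6.46 and 7.42 CPM in WT to 13.5 and 15.4 CPM (0.78 ± 0.17, adjusted p = 0.00362).

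**Figure D3:**
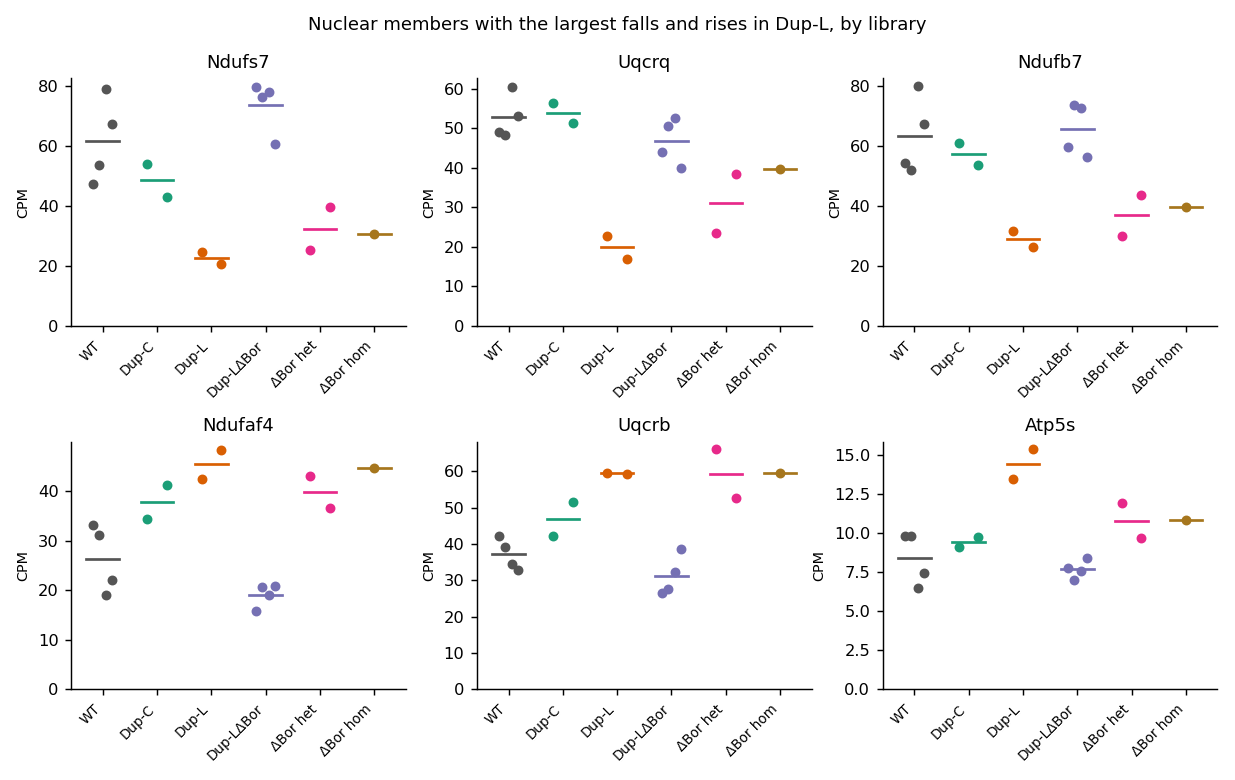
CPM (y axis, from 0) of 6 nuclear members by genotype; each point is 1 library and the bar is the group mean. Ndufs7, Uqcrq and Ndufb7 are lowest in Dup-L, and Ndufaf4, Uqcrb and Atp5s have their WT libraries below both Dup-L libraries.

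The coding sequences of members at both ends of this range show how their base composition differs. The first 120 coding bases are given below, 5′ to 3′, with G and C in capitals, from the GENCODE M21 annotation of GRCm38. Over the whole coding sequence, G and C make up 61.6% in Ndufs7, 57.7% in Uqcrq, 44.9% in Ndufaf4, 42.0% in Atp5s and 35.6% in mt-Nd4.
Ndufs7: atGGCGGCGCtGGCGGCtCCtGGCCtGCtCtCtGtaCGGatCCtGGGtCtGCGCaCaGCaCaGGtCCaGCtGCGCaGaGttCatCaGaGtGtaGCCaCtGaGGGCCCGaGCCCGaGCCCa
Uqcrq: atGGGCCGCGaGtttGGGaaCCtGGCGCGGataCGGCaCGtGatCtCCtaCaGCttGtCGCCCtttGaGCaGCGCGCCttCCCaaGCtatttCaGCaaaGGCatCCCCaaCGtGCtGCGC
Ndufaf4: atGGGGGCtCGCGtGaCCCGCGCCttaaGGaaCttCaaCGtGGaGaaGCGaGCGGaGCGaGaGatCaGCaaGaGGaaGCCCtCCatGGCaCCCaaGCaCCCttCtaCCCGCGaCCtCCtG
Atp5s: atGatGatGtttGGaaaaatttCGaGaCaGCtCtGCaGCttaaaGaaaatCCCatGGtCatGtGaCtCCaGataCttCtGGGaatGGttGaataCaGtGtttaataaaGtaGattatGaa
mt-Nd4: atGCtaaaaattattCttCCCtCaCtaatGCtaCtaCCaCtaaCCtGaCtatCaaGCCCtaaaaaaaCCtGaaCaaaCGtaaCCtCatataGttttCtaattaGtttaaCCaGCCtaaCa
The start of Ndufaf4 is as rich in G and C (62.5% of the bases shown) as those of Ndufs7 (66.7%) and Uqcrq (60.8%), and the difference lies in the rest of its coding sequence. The starts of Atp5s and mt-Nd4 hold 35.8% and 34.2%. The GC content used for the offsets and in the next paragraph is that of the whole transcript, not of the coding sequence. With the GC and length offsets, the log2 fold change in Dup-L was −0.94 for Ndufs7, 0.17 for Ndufaf4 and 0.14 for Atp5s. It was −1.50 for Uqcrq and −1.47 for Ndufaf5, which is not shown here, so these 2 falls did not shrink.

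Across the nuclear members the change in Dup-L went with the GC content of the transcript. Over 85 genes, Pearson's r between GC content and log2 fold change was −0.54 and Spearman's rho −0.53. The same relation over 15255 genes of the table had r = −0.64, and these genes share libraries, depth and base composition, so the values are a description only. When the members were split into 3 classes by GC content, 5 rose and 5 fell of 29 in the lowest class (38.4% to 49.0% GC), 1 rose and 10 fell of 28 in the middle, and none rose and 17 fell of 28 in the highest (54.4% to 63.3% GC). The corresponding shares of all genes that fell were 1.48%, 14.8% and 44.7%, and of all genes that rose 35.1%, 3.03% and 0.170%. In the lowest class 17.2% of the members rose, below the share of all genes. In the highest class the members' median log2 fold change of −0.45 stood beside −0.44 for all genes, while in the lowest it was 0.01 beside 0.30.

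**Figure D4:**
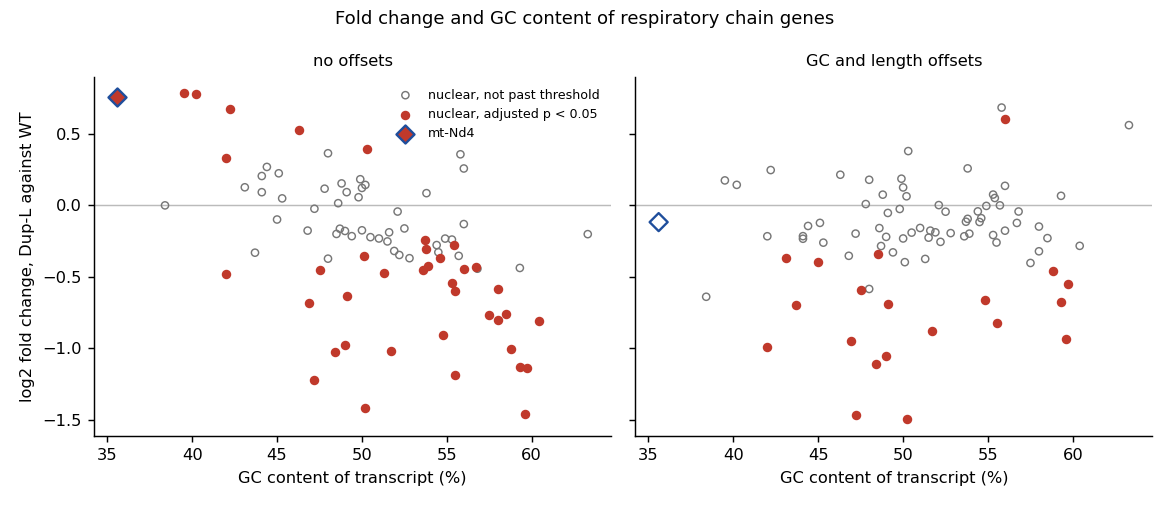
Log2 fold change in Dup-L against WT (y axis) and GC content of the transcript (x axis, %) for members with a known sequence, without offsets (left) and with GC and length offsets (right); filled points passed an adjusted p of 0.05. The slope on the left (r = −0.54 over 85 nuclear members) is absent on the right (r = 0.15), where mt-Nd4 lies near 0. The offsets are fitted to remove this trend over all genes, so its absence follows largely from the fit.

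With the offsets, 1 member rose and 19 fell in Dup-L, while 2.06% of all genes rose and 3.86% fell in that fit, and 15 of these were called in the same direction without them. None of the 7 members that rose without offsets was among the 15. When the number range was a term beside the offsets, 8 members were called, all lower and all called without offsets too, and 0.855% of all genes were lower in that fit. They were chosen here after their values were seen. Uqcrq had a log2 fold change of −1.40 in that fit (adjusted p = 0.0302), Ndufb6 of −1.10 (adjusted p = 0.0302), Cox5b of −0.79 (adjusted p = 0.0335), Ndufb8 of −0.75 (adjusted p = 0.0408), Cox7b of −0.69 (adjusted p = 0.0302), Ndufs7 of −0.67 (adjusted p = 0.0302), Ndufs6 of −0.61 (adjusted p = 0.0386) and Ndufa2 of −0.56 (adjusted p = 0.0302). Ndufb6, an accessory subunit of the membrane arm, stood at 23.6, 23.6, 26.7 and 24.1 CPM in WT and at 12.9 and 11.3 CPM in Dup-L. Cox5b, a zinc-binding subunit of complex IV, stood at 75.4, 74.9, 111 and 109 CPM in WT and at 48.3 and 46.0 CPM in Dup-L. In both genes every Dup-L library lay below every WT library. Ndufb6 showed 12.9 and 18.9 CPM in ΔBor het and 15.9 CPM in ΔBor hom, below every WT library as well.

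With the log level of Pitx1 as a covariate in edgeR, no gene of the whole table passed the threshold in Dup-L, while 35 of 88 members and 26.7% of all genes had an unadjusted p under 0.05. WT 2 and WT 4, in which Pitx1 was as low as 1.91 CPM, had 53.7 and 67.3 CPM of Ndufs7 and 48.4 and 53.2 CPM of Uqcrq, near the other WT libraries and well above Dup-L. Under that covariate Uqcrq kept a log2 fold change of −1.17 (adjusted p = 0.0576) and Ndufs7 of −1.23 (adjusted p = 0.0623). The part of limb type in the Dup-L result was not tested beyond these values.

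No member passed the threshold in Dup-C, where 0.00566% of all genes did (edgeR). At an unadjusted p under 0.05, 25 of 88 members differed, beside 16.6% of all genes, and DESeq2 called 0 members. The members' median log2 fold change was 0.14, against −0.01 over all genes, and the values ran from −0.72 to 0.61. Without WT 1, 15 members passed, all higher, beside 5.51% of all genes called higher, so that this library decides the count. Cox7c, a small subunit of complex IV, showed 129 and 126 CPM in Dup-C and 117, 106, 78.9 and 71.1 CPM in WT (log2 fold change 0.51 ± 0.16, adjusted p = 0.251).

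In Dup-LΔBor against WT, no member rose and 6 fell, while 3.85% of all genes changed, 2.25% upward and 1.60% downward. The members' median log2 fold change was −0.09. The genes that fell were Ndufb5 and Ndufa5 of complex I, Cox7c of complex IV, and Atp5e, Atp5g1 and Atp5h of complex V. Ndufb5, an accessory subunit, stood at 69.7, 65.5, 47.2 and 46.2 CPM in WT and at 39.1, 42.7, 40.6 and 36.9 CPM in Dup-LΔBor (log2 fold change −0.52 ± 0.12, adjusted p = 0.0352). Cox7c stood at 69.1, 68.4, 68.2 and 57.9 CPM in Dup-LΔBor (−0.50 ± 0.13, adjusted p = 0.0495). In both genes WT 3 and WT 4, whose library numbers share the range of Dup-LΔBor, were nearer to Dup-LΔBor than WT 1 and WT 2. Atp5e, the epsilon subunit of the catalytic head, fell by 0.45 (SE 0.10, adjusted p = 0.0254), Ndufa5 by 0.49 (SE 0.11, adjusted p = 0.0302) and Atp5g1 by 0.41 (SE 0.09, adjusted p = 0.0308). Within the second number range, and with the range as a term, 0 members were called. Leaving out single libraries gave between 0 and 18 calls, with 18 without WT 4 (beside 8.62% of all genes) and 0 without WT 2, R2, R3 or R5.

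Of the 6 tested forms of complex IV subunits restricted to certain tissues or conditions (Cox4i2, Cox6a2, Cox6b2, Cox7a1, Cox8b and Ndufa4l2), each had its highest CPM in a Dup-LΔBor library. The share of all genes for which this holds was not counted, and none of the 6 was called against WT there. Cox8b lay near the floor, and Cox6a2 is set beside muscle markers below. Cox4i2, a form of subunit 4 known for its response to low oxygen, stood at 20.1, 9.37, 7.11 and 11.6 CPM in R2 to R5 and at 10.4, 10.5, 7.82 and 7.31 CPM in WT (log2 fold change 0.42 ± 0.25, adjusted p = 0.326). Ndufa4l2, a paralogue of Ndufa4 that is known as hypoxia-inducible, stood at 2.66, 0.512, 0.184 and 1.29 CPM in R2 to R5 and at 0.265, 0.468, 0.112 and 0.725 CPM in WT (1.64 ± 0.69, adjusted p = 0.174). Neither difference passed the threshold, and library R2 was highest in both genes. Ldha and Pdk1, which turn pyruvate away from the mitochondrion and are known hypoxia targets, had their highest values in R2 too, at 2409 CPM and 287 CPM.

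**Figure D5:**
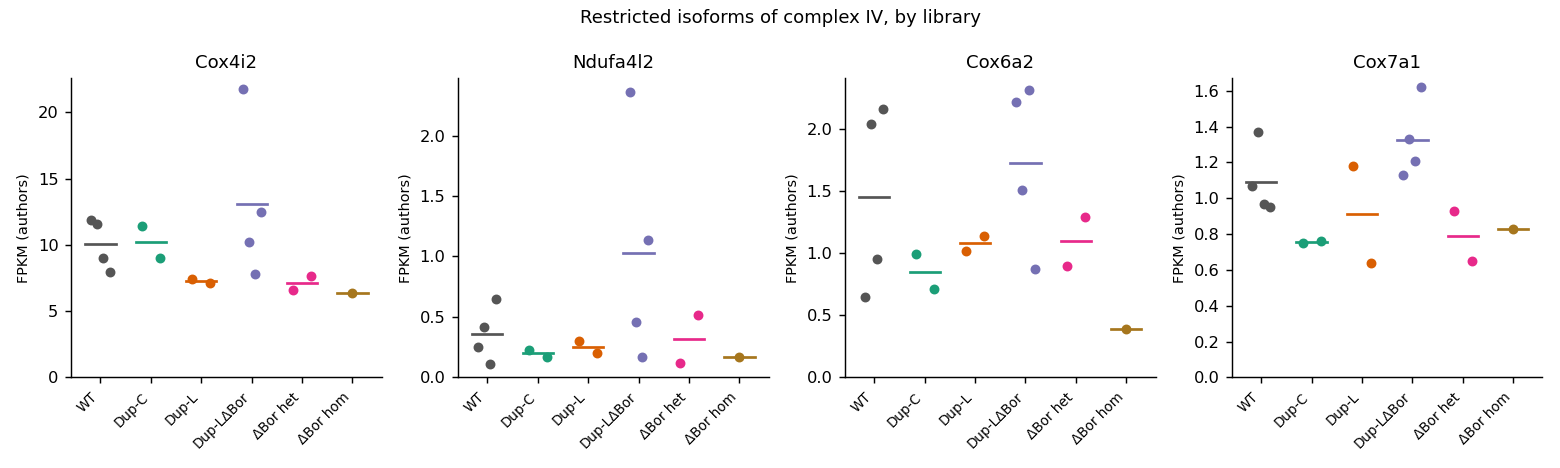
FPKM of the authors (y axis, from 0) of 4 restricted forms of complex IV subunits by genotype; each point is 1 library and the bar is the group mean. Cox4i2 and Ndufa4l2 are highest in 1 Dup-LΔBor library, and Cox6a2 splits the libraries within WT and within Dup-LΔBor.

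The muscle forms varied between libraries of 1 genotype. Cox6a2, found in heart and skeletal muscle, stood at 0.474, 1.56, 0.689 and 1.65 CPM in WT 1 to 4 and at 1.71, 1.16, 1.76 and 0.673 CPM in R2 to R5. Skeletal muscle markers (6 of 6 present, none at 0) summed to 382, 668, 517 and 832 CPM in the same WT libraries and to 847, 450, 836 and 371 CPM in R2 to R5. The 2 libraries with the highest sums in each group were thus the 2 with the most Cox6a2, whose common counterpart Cox6a1 stood at 107, 111, 141 and 122 CPM in WT. The part of muscle content in Cox6a2 was not tested. In bulk tissue, fewer cells of a type and less RNA per cell cannot be told apart. None of the 6 restricted forms passed the threshold against WT in any genotype in the fit of all libraries. Within the first number range alone, Cox4i2 was lower in Dup-L (log2 fold change −0.68, adjusted p = 0.0310). Between Dup-LΔBor and Dup-L, 2 of the 6 were higher in Dup-LΔBor, beside 21.5% of all genes. These were Cox4i2 (log2 difference 0.86, adjusted p = 0.0415) and Cox6b2 (0.79, adjusted p = 0.00351). Neither was called with the GC and length offsets.

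In ΔBor het, 3 members rose and 8 fell against WT, while 4.03% of all genes changed, 2.25% upward and 1.78% downward. Uqcrb rose to 66.1 and 52.6 CPM (log2 fold change 0.70 ± 0.16, adjusted p = 0.0388), Ndufaf1 to 23.7 and 24.5 CPM (0.54 ± 0.13, adjusted p = 0.0406), and Ndufc1, an accessory subunit, to 33.0 and 41.9 CPM (0.49 ± 0.12, adjusted p = 0.0418). All of these libraries lay above the 4 WT libraries. The largest falls were those of Ndufs7 (−0.91 ± 0.21, adjusted p = 0.0412), Ndufb7 (−0.76 ± 0.20, adjusted p = 0.0454), Uqcrq (−0.75 ± 0.18, adjusted p = 0.0428), Ndufa2 (−0.74 ± 0.20, adjusted p = 0.0494) and Cox4i1 (−0.70 ± 0.16, adjusted p = 0.0407). The 2 libraries differed: Uqcrq stood at 23.6 CPM in ΔBor het 1, near Dup-L, and at 38.5 CPM in ΔBor het 2. Without ΔBor het 1, or without WT 4, 0 members were called; without WT 3, 1 was, and without WT 1 or WT 2 the count was 21 or 19, beside 14.2% or 5.32% of all genes. With the GC and length offsets 0.578% of all genes and 1 member were called, Sdha, and it was not among the 11. ΔBor het shares its WT libraries with the other comparisons, so the values of a gene in several genotypes are not independent.

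In ΔBor hom, which has 1 library assumed to vary like the other groups, no member passed the threshold, and 1.27% of all genes did (edgeR). At an unadjusted p under 0.05, 31 of 88 members differed, beside 26.6% of all genes. DESeq2 called 15 of 84 members, of which 11 were higher, and 15.4% of all genes, so that this count lay near the general share. Ndufaf4 stood at 44.7 CPM (log2 fold change 0.84 ± 0.24, adjusted p = 0.0644) and Uqcrb at 59.7 CPM (0.76 ± 0.20, adjusted p = 0.0568), both above all WT libraries. Without WT 1, 19 members passed, 14 higher and 5 lower, beside 15.6% of all genes.

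Between Dup-LΔBor and Dup-L, 31 members were higher and 20 lower in Dup-LΔBor, while 43.6% of all genes differed, 21.5% upward and 22.1% downward. The members' median log2 difference was 0.11. This comparison uses the same libraries as both comparisons with WT. The largest rises were those of Ndufs7 (1.71 ± 0.22, adjusted p = 1.12e-04), Uqcr10 (1.39 ± 0.25, adjusted p = 6.31e-04), Uqcrq (1.24 ± 0.19, adjusted p = 1.84e-04), Atp5d (1.22 ± 0.22, adjusted p = 7.59e-04) and Ndufaf5 (1.19 ± 0.28, adjusted p = 0.00298). Beside mt-Nd4, the largest falls were those of Ndufaf4 (−1.25 ± 0.19, adjusted p = 2.14e-04), Uqcrb (−0.92 ± 0.16, adjusted p = 3.88e-04), Atp5s (−0.90 ± 0.17, adjusted p = 6.84e-04) and Ndufb5 (−0.88 ± 0.15, adjusted p = 3.08e-04). In none of these genes did the 4 Dup-LΔBor libraries overlap the 2 of Dup-L, but they were picked as the largest called differences. The share of all genes without overlap was not counted, so nothing particular to the members is read from it. The same applies to other named genes above whose libraries did not overlap. In complex IV 8 of 18 genes rose, and the median log2 difference there was 0.56, the highest of the 5 complexes. All Dup-L libraries lie in the first number range and all Dup-LΔBor libraries in the second, so genotype and range can be separated only through WT. With the range as a term, 5 members rose and 4 fell, beside 7.38% of all genes higher and 5.64% lower. With the offsets beside it, 1 member rose, Ndufb6 (0.96, adjusted p = 0.0464), and 0.691% of all genes did.

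The promoters of members carried short motifs known from respiratory genes. RefSeq promoters on GRCm38.p6, from 250 bases before the start to 50 after it, were found for 71 members. The motif CGCATGCG of NRF1, an activator of nuclear respiratory genes, was found on either strand in 10 of the 71 (14.1%) and in 1.91% of 27025 promoters of the same length. The ETS motif CCGGAAG was found in 16 (22.5%, against 9.12% of all), and AAGATGGCG, bound by YY1, in 6 (8.45%, against 1.49%). The end of CCGGAAG and the start of AAGATGGCG share 3 letters, so 1 stretch can hold both. The NRF1 motif was found for Ndufaf4, which rose in Dup-L without offsets, and for Ndufaf5, Uqcrc1, Cox6a1, Ndufa11 and Atp5k, which fell. Atp5g2, Atp5l and Ndufa8 did not pass the threshold, and Uqcr11 was not tested. Only Ndufaf4 rose, and with the GC and length offsets it was not called (log2 fold change 0.17, adjusted p = 0.499). In Dup-L 15.8% of all genes rose and 16.6% fell, and no direction is read from the motif. The stretches before the start of 1 gene that rose (Ndufaf4, chr4:24897833-24898082, plus strand) and 1 that fell (Ndufb7, chr8:83566508-83566757, plus strand) are given 5′ to 3′, with the NRF1 motif and the ETS motif in capitals.
Ndufaf4: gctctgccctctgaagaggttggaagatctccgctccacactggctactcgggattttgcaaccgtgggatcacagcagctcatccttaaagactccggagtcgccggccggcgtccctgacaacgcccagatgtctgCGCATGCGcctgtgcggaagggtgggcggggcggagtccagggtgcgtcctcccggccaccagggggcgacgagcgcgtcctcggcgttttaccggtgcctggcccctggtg
Ndufb7: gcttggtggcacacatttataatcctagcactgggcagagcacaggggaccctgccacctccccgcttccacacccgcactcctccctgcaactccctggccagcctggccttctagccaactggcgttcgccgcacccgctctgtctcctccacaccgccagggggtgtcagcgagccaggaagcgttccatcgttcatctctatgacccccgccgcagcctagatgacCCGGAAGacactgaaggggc
A match is a description of these letters and not evidence that a factor binds there.

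Other genes of mitochondrial energy metabolism, from lists written for this comparison, changed in both directions in Dup-L. Their counts stand beside 15.8% of all genes higher and 16.6% lower, and nothing particular to a list is read from them. They come from the fit without offsets, and no alternative fit is given for these genes. With the GC and length offsets, 5.92% of all genes were called in Dup-L, against 32.4% without them. Among assembly factors with other names, 3 of 32 rose and 6 fell; Cox20, which helps to mature a mitochondrially encoded subunit of complex IV, rose from 23.2 ± 6.22 (n = 4) to 45.3 ± 5.88 CPM (n = 2; log2 fold change 0.97, adjusted p = 0.00212). Among electron carriers 3 of 14 rose and 3 fell: Cycs, cytochrome c, rose by 0.43 (adjusted p = 0.0442), while Cyc1, the cytochrome of complex III to which it docks, fell by 0.64 (adjusted p = 0.00226). In the tricarboxylic acid cycle 2 of 17 rose and 5 fell, and among mitochondrial ribosomal proteins 5 of 75 rose and 16 fell. Of 11 genes of mitochondrial transcription and replication, 5 rose and 2 fell, and Polrmt, the mitochondrial RNA polymerase, was among those that fell (56.7 ± 4.03 CPM in WT, n = 4, and 28.0 and 26.6 CPM in Dup-L, adjusted p = 0.00138). Among 12 nuclear regulators of respiration 2 rose and 4 fell.

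In Dup-LΔBor against WT, the hypoxia list had 3 of 11 genes higher and none lower, with a median log2 fold change of 0.80, beside 2.25% of all genes higher, 1.60% lower and a median of −0.01 over all genes. The list includes Cox4i2, a member described above, so its median is not separate from that value. Ldha rose from 805 ± 67.0 CPM (n = 4) to 1654 ± 525 CPM (n = 4; log2 fold change 1.04, adjusted p = 0.00608), Pdk1 by 0.91 (adjusted p = 0.0383) and Lonp1, a mitochondrial protease, by 0.42 (adjusted p = 0.0240). All 4 Dup-LΔBor libraries had more Ldha (1202 to 2409 CPM) than any WT library (713 to 875 CPM). Cycs fell there by 0.60 (adjusted p = 0.0262), to 67.0 ± 8.60 CPM. These values come from the fit of all libraries without offsets or range. With the number range as a term, 0.396% of all genes were called in Dup-LΔBor, against 3.85% without it. In Dup-L against WT, 1 of the 11 genes of the hypoxia list rose and 2 fell, with a median of −0.17. The shares of all genes there were 15.8% higher and 16.6% lower.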

How the data were processed

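PolyA libraries were made with the TruSeq RNA V2 kit from Trizol and RNeasy column RNA, per the labels' protocols. The authors deposited unnormalised counts for each gene, from reads aligned with STAR to mm9, per the submitters' processing notes. Which counter, annotation and strand option made the counts is not stated here. The authors also deposited FPKM values, whose library scaling is unknown here. Columns were matched to samples by genotype and replicate number. Those of Dup-LΔBor carry R2 to R5 where the labels number otherwise, and that of ΔBor hom carries R3, so these libraries were matched by group. The 2 samples of E17.5 fingertips were not analysed here.

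All 15 libraries entered 1 fit of 6 groups with the two-sided, robust quasi-likelihood test of edgeR 4.0.16 (R 4.3.3), after a count filter (filterByExpr) and TMM scaling, with adjustment by Benjamini-Hochberg over 17655 genes. A gene rose or fell only where its adjusted p was under 0.05. CPM are counts relative to a library's total, and FPKM were used only to compare levels between genes. With 34486256 to 53711742 counts per library, a gene at 1 CPM rests on at least 34 counts. How counting error compares with the spread between libraries was not computed. The alternatives were RLE scaling, no count filter, DESeq2 1.42.0, mitochondrial rows left out of library sizes, the range of library numbers as a term or alone, offsets from a smooth fit (mgcv 1.9.3) on GC content and transcript length, a replicate block, Pitx1 as a covariate, and each library left out. GC content and length came by symbol from the longest protein-coding transcript in GENCODE M21 and covered 86.4% of genes tested and 90 of 92 members. The text names core and isoform genes of each complex and, per comparison, the 5 members with the largest rise and fall among those past the threshold, with up to 3 genes per list. The members, lists, roles and rules were chosen with earlier results of these data known.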

Additional observations from a re-analysis of the deposited data

Results flagged for a closer look

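In groups of 4 libraries, 4 values stood far from the other 3, judged by the gap to the nearest value as a share of the group's range. Chance gives this in about 1 in 20 groups, and 84 groups were looked at. Atp5d, the delta subunit of ATP synthase, stood at 130.7 CPM in Dup-LΔBor R5 and at 175.5 to 177.5 CPM in R2, R3 and R4. Cox7c stood at 57.86 CPM in the same library R5 and at 68.21 to 69.07 CPM in the others. Cox5a stood at 72.26 CPM in Dup-LΔBor R2 and at 87.36 to 88.7 CPM in the others. Atp5e stood at 73.68 CPM in WT 4 and at 91.26 to 94.05 CPM in the other WT libraries.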

How the results depend on the processing

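The count of members past the threshold depended on the treatment of GC content, number range and limb type. For Dup-L against WT (39 members), it was 20 with GC and length offsets, 8 with the range added and 0 with Pitx1 as a covariate, while the share of all genes called went from 32.4% to 5.92%, 1.08% and 0%. Of the 39, RLE scaling kept 38 and DESeq2 39. For Dup-LΔBor against WT (6), it was 0 with the range as a term or within it, 1 with offsets and range, 15 with Pitx1 and 18 with DESeq2, beside 0.396%, 0.392%, 0.861%, 7.77% and 9.99% of all genes (3.85% in the fit as reported). For ΔBor het (11), it was 6 without the count filter, 0 with the range as a term, within it, or with offsets and range, 1 with offsets, 17 with Pitx1 and 22 with DESeq2, and all genes went from 4.03% to 2.03%, 0.181%, 0.318%, 0.176%, 0.578%, 6.33% and 13.9% in that order. For ΔBor hom (0) it was 15 with DESeq2, beside 15.4% of all genes (1.27% as reported). For Dup-LΔBor against Dup-L (51) it was 9 with the range as a term, 1 with offsets and range, and 10 with Pitx1, beside 13.0%, 1.19% and 7.87% of all genes (43.6% as reported). Leaving out 1 library at a time gave 0 to 15 for Dup-C, 7 to 40 for Dup-L, 0 to 18 for Dup-LΔBor, 0 to 21 for ΔBor het, 0 to 19 for ΔBor hom and 34 to 48 for Dup-LΔBor against Dup-L. The ratio of mt-Nd4 to WT ranged from 1.61 to 1.78 in Dup-L and from 0.69 to 0.80 in Dup-LΔBor when 1 library was left out. The single library of ΔBor hom cannot be left out, and no number range holds both Dup-L and Dup-LΔBor. The cause of these changes was not tested.

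Single genes changed sign in some fits. In Dup-L against WT, the log2 fold change became −0.12 (offsets) and −0.13 (offsets and range) for mt-Nd4, −0.02 for Atp5s and −0.04 for Ndufaf4 (both offsets and range). In Dup-LΔBor against Dup-L it became −0.14 for Atp5a1, 0.22 for Atp5s and −0.07 for Ndufv1 with offsets and range, and −0.05 for Cox7a2 with Pitx1. Cox7c became 0.07 with the range, 0.35 with offsets and 0.76 with both; Ndufa4 0.07 and 0.09, Ndufc1 0.02 and 0.29, and Ndufs1 0.10 and 0.03 with offsets and with both. mt-Nd4 passed the threshold with DESeq2 in Dup-LΔBor (adjusted p = 0.0300), ΔBor het (0.0458) and ΔBor hom (0.0334).

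Same-numbered libraries of WT, Dup-C, Dup-L and ΔBor het did not deviate together (correlations from −0.18 to 0.10), and the labels do not say that a number marks anything shared. With the replicate number as a block, 15 members were called in Dup-L, 0 in ΔBor het and 0 in Dup-C. With the block and offsets together none was called in any of the 3, and in Dup-L mt-Nd4 stood at −0.19, Atp5s at −0.06 and Ndufaf4 at −0.08. The columns of Dup-LΔBor and ΔBor hom carry no label number, so no block was fitted for them.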
